A study of Mus musculus with 47 samples.

Results

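The keratin genes are the 49 rows, of 20456 genes in the count table, whose symbol is Krt followed by digits alone. Keratins with a letter in the symbol, such as Krt6a, fall outside this rule. RNA was sequenced from whole liver, lung and brain of C57BL/6 mouse embryos at E18.5, shortly before birth. The embryos were homozygous for 1 of 2 point mutations of Daxx, a histone H3.3 chaperone: Y130A, which abolishes the interaction with Atrx, or S226A, which abolishes the interaction with H3.3. Each mutant was compared with wild-type littermates from heterozygous intercrosses, and no embryo received a treatment. Both alleles were made by CRISPR in C57BL/6N zygotes and backcrossed to C57BL/6J. The 47 libraries form 12 groups, each of 4 embryos except that of wild-type lung from Y130A litters, which has 3. Total counts ran from 15722147 to 26190403 in the 24 libraries of the S226A litters and from 36351738 to 54885020 in the 23 of the Y130A litters. A count per gene cannot show a point mutation, so genotypes rest on the labels.

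Keratins form the intermediate filaments of epithelial cells. Each filament is built from pairs of an acidic type I and a basic type II keratin, and the pair in use marks the kind of epithelium. Krt8 and Krt18 are the pair of simple epithelia and the keratins of hepatocytes, Krt7 and Krt19 join them in ducts and airways, and Krt20 is best known from the gut lining and urothelium. Stratified epithelia use Krt5, Krt14 and Krt15 in their basal layer. Above it, Krt1 and Krt10 are made in cornifying epidermis, and Krt4 and Krt13 in the squamous lining of mouth, oesophagus and forestomach.

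The genes lie in 2 clusters of the GRCm38 assembly, 25 on chromosome 11 between 99232761 and 100269871 and 24 on chromosome 15 between 101347444 and 102032027. By textbook role, 5 are simple epithelial keratins, 3 basal, 5 of cornifying epidermis, 4 of mucosal squamous epithelium, 2 stress keratins, 1 corneal, 7 of the hair inner root sheath, 13 of the hair shaft, 1 of the hair companion layer and 8 others. All 49 had at least 1 read somewhere, 44 had 10 or more reads over all libraries, and 28 passed the filter on low counts and were tested. The 21 that did not pass include Krt2, Krt9, Krt16, Krt76 and 10 of the 13 keratins of the hair shaft. None of the 21 went above 0.491 CPM (counts scaled to library size, with the TMM factors of edgeR) in any library.

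Promoters in RefSeq (GRCm38.p6) were matched for 35 of the 49 genes. The 150 bases before the start site are shown for 3 of them, all read on the minus strand and written 5′ to 3′. Krt20 was at 24.0 CPM or more in every liver and at most 0.351 CPM in any lung, and Krt13 and Krt5 stand for the mucosal and basal keratins that were high in single livers and uneven between lungs. Capitals mark TATAAA or ATAAAAG, the TATA box and a variant of it, which overlap where both occur.
Krt20 (chr11:99438154-99438303): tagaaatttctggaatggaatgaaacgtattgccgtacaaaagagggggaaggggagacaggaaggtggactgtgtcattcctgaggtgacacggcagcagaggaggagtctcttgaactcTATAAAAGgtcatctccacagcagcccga
Krt13 (chr11:100121567-100121716): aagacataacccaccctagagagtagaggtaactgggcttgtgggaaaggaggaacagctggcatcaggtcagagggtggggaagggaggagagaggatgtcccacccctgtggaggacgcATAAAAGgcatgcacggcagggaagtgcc
Krt5 (chr15:101712906-101713055): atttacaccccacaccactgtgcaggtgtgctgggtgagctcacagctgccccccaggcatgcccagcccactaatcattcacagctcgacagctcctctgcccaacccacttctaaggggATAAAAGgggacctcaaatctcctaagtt

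The capitals begin 29 bases before the start site in all 3 sequences. Searched on both strands of the same window, TATAAA stood in 14 of 36 keratin promoters against 7.56% of 32544 mouse promoters. ATAAAAG, added after these sequences were read, stood in 12 of 36 against 3.02%. The G-rich letters GGGCGG stood in 2 of 36 against 28.8%, CCAAT in 10 of 36 against 24.4%, and TGANTCA in 1 of 36 against 4.24%. These are matches of letters in a window and carry no test.

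Levels are given as TMM-scaled CPM, and between genes only per kilobase of the principal transcript (CPM per kb). The labelled tissues carried their own markers. Summed over 8 genes each, hepatocyte markers were at 175400 to 273300 CPM in liver and at most 1565 elsewhere, lung epithelium markers at 7265 to 11760 CPM in lung and at most 52.4 elsewhere, and brain markers at 5966 to 7276 CPM in brain and at most 80.1 elsewhere.

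A pair of liver libraries stood apart from the other 14 in their keratins: wild type (S226A litters) replicate 2 and Y130A replicate 1. They come from different litters and opposite genotypes. Krt4 reached 543 CPM in the first and 350 CPM in the second, against 0 to 4.27 CPM in the other livers. Krt13 was at 412 and 287 CPM against at most 4.12 CPM. In both libraries these mucosal keratins exceeded Krt8 and Krt18 of the same library.

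**Figure D1:**
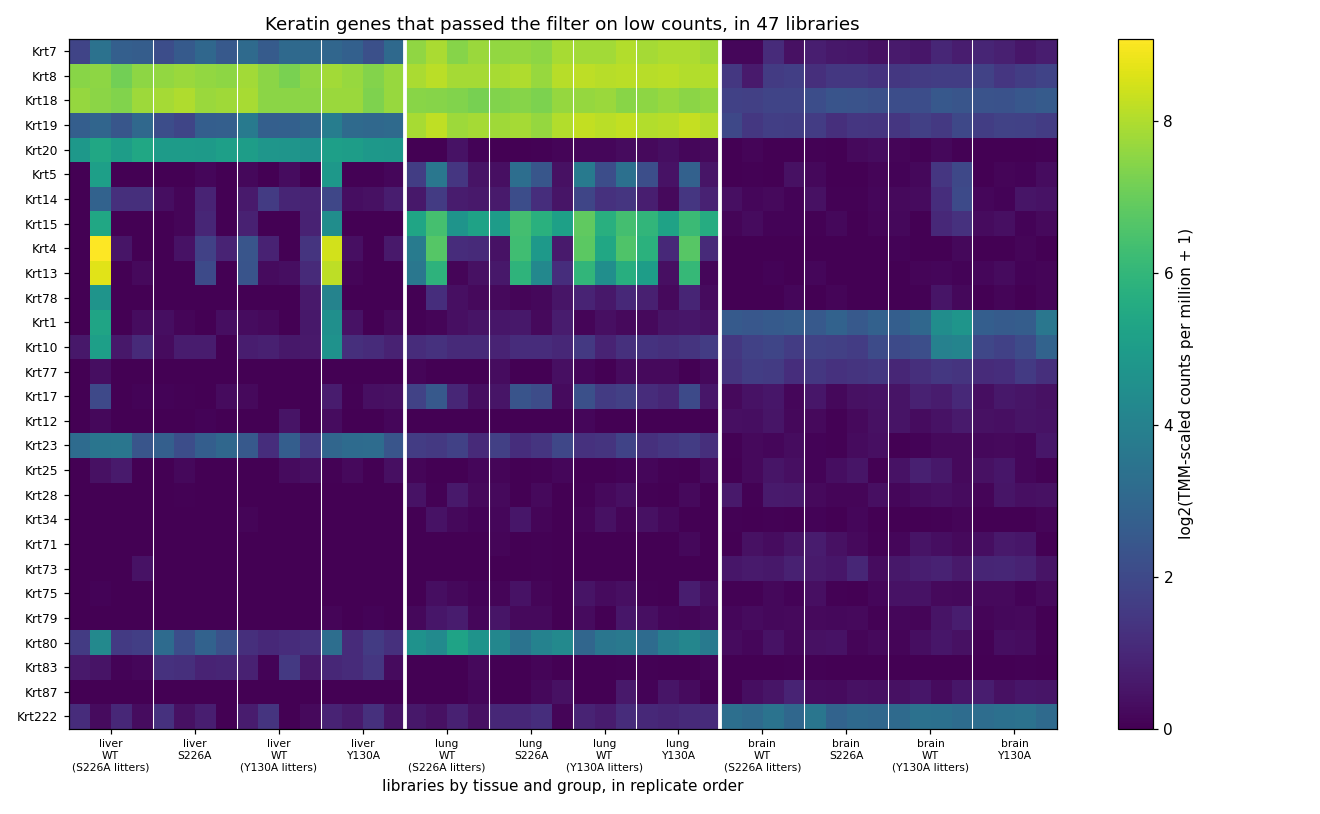
Levels of the 28 tested keratins (rows) in the 47 libraries (columns, by tissue and group), as log2(TMM-scaled CPM + 1). Krt8 and Krt18 fill liver and lung, Krt20 is bright in liver alone, and 2 liver columns carry Krt4, Krt13, Krt5, Krt15, Krt1 and Krt10.

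Basal and epidermal keratins were raised in the same pair of libraries. Krt5, the basal type II keratin, was at 34.2 and 27.9 CPM against 0 to 0.243 CPM in the other 14 livers. Krt15, a type I keratin of basal cells, was at 42.1 and 21.1 CPM against at most 0.990 CPM. Krt1 and Krt10, the pair of cornifying epidermis, followed the same order. Krt1 was at 38.6 and 22.1 CPM against at most 0.485 CPM, and Krt10 at 33.9 and 23.9 CPM against at most 1.35 CPM. Krt78 was at 25.2 and 15.6 CPM against at most 0.545 CPM. Krt14, the usual partner of Krt5, was less raised, at 6.24 and 2.80 CPM against at most 1.98 CPM, and its exonic 50-base windows are shared in part with Krt16 and Krt17 (13.9%). Of the 49 keratins, 14 in the wild-type library were above every one of the other 14 livers, as were 7.31% of all 20456 genes. In the Y130A library 13 were, against 10.3% of all genes, and 10 were in both, against 2.6%.

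Of the 5 simple keratins, Krt8, Krt18 and Krt20 of the pair lay within the range of the other livers. Krt8 was at 187 and 227 CPM in the pair and at 140 to 229 CPM in the other livers. Krt18 was at 181 and 210 CPM, within the 161 to 258 CPM of the others. Krt7 of the wild-type library (9.79 CPM) was above every other liver, the next being at 7.78 CPM, and Krt7 of the Y130A library was at 7.05 CPM. Krt19 of the Y130A library (13.5 CPM) was the highest of all livers, with 12.5 CPM in wild type (Y130A litters) replicate 1 next to it.

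Genes of squamous epithelium other than keratins moved with these keratins. All 24 genes of a squamous list, chosen with these libraries known to be squamous, were higher in both than in any other liver, as were 2.6% of all genes, and their summed level was 823 and 580 CPM against 60.5 to 82.5 CPM. Rptn (repetin, of the cornified envelope) was at 248 and 193 CPM against at most 1.33 CPM, and Sprr3, a small proline-rich protein of mucosal squamous cells, at 121 and 63.7 CPM against at most 0.307 CPM. Summed markers of stomach glands were at 0.460 and 0 CPM, and hepatocyte markers lay within the range of the other livers. Summed lung epithelium markers were above every other liver in both, at 25.8 and 32.4 CPM against at most 21.3 CPM. Of that list Hopx was at 7.51 to 26.1 CPM over all livers, and every other marker was at most 4.93 CPM in any liver. Sftpc was at most 0.472 CPM, and Nkx2-1 had 0 in all livers. Whether squamous tissue entered these samples was not tested. In bulk RNA, fewer cells of a type and less RNA per cell cannot be told apart. Main values of the liver comparisons are also given without this pair of libraries.

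**Figure D2:**
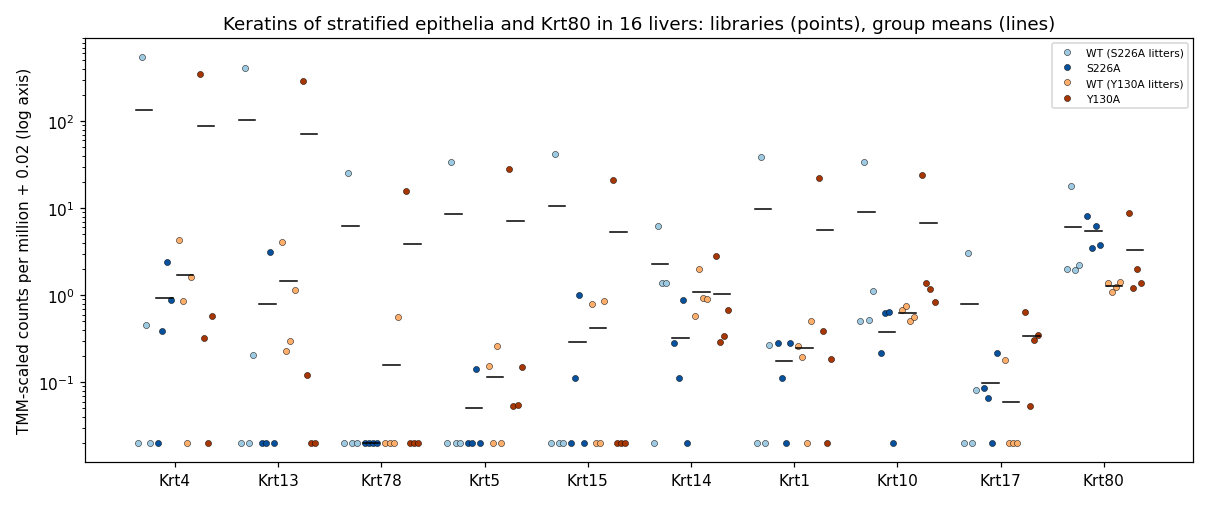
Levels of 9 keratins of stratified epithelia and Krt80 in the 16 livers, as TMM-scaled CPM + 0.02 on a log axis (points are libraries, lines are group means). A single point of the wild-type (S226A litters) group and a single point of the Y130A group stand above the others for Krt4, Krt13, Krt78, Krt5, Krt15, Krt1 and Krt10.

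In liver without these libraries, Krt18 and Krt8 made up most of the keratin RNA. Over the other 7 wild-type livers, Krt18 was at 134.9 ± 17.1 CPM per kb (SD, n = 7) and Krt8 at 91.2 ± 14.6, which are 53.0% and 35.8% of the summed keratin level. Krt20 followed at 15.6 ± 3.18, and Krt19 (4.38 ± 1.67) and Krt23 (3.37 ± 2.15) were far below. With all 8 wild-type livers, Krt4 (32.3 ± 89.9) and Krt13 (31.6 ± 87.9) came next after Krt8, with SDs larger than their means.

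In wild-type lung the order was Krt19 at 169.7 ± 24.3 CPM per kb (SD, n = 7), Krt8 at 134.3 ± 13.97, Krt18 at 124.4 ± 15.03, Krt7 at 53.4 ± 7.49 and Krt15 at 36.5 ± 19.1. Krt8 and Krt18 overlapped in their spread. The ratio of Krt8 to Krt18 per kb was 0.951 to 1.20 in the 15 lungs and 0.601 to 0.795 in the 16 livers, with no overlap. Part of the Krt8 transcript (26.9% of its 50-base windows) also occurs in its pseudogene Krt8-ps.

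Brain held little keratin RNA. The highest wild-type level was that of Krt1, at 4.06 ± 3.46 CPM per kb (SD, n = 8), followed by Krt222, a keratin-like gene, at 2.81 ± 0.328, Krt10 at 2.77 ± 2.84, Krt18 at 2.24 ± 0.622 and Krt19 at 1.41 ± 0.306. Without wild-type (Y130A litters) replicates 3 and 4, Krt222 came first at 2.79 ± 0.373 (SD, n = 6), above Krt1 at 2.22 ± 0.390, Krt18 at 1.94 ± 0.346, Krt19 at 1.38 ± 0.284 and Krt10 at 1.25 ± 0.312.

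**Figure D3:**
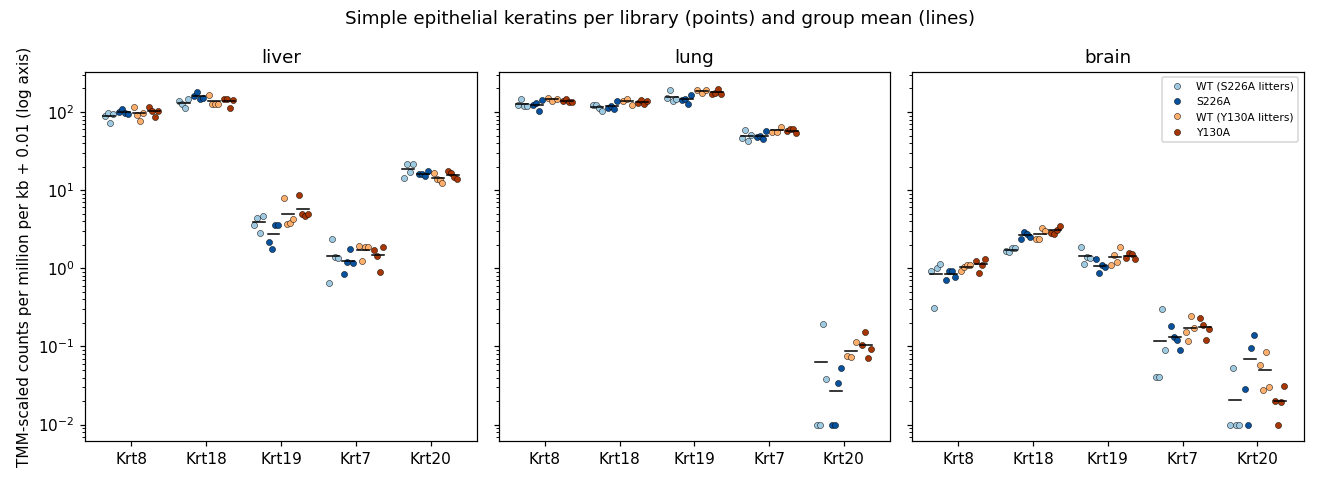
Levels of 5 simple epithelial keratins per library, as TMM-scaled CPM per kb + 0.01 on a log axis, by tissue and group (lines are group means). Krt8 and Krt18 are abundant in liver and lung, Krt19 and Krt7 are higher in lung, and Krt20 is higher in liver.

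Wild-type tissues were compared to ask which keratins distinguish them without a mutation. A gene was called at an adjusted p below 0.01, a log2 fold change beyond 1 either way and a standard error below 1 (edgeR quasi-likelihood test, Benjamini-Hochberg adjustment over 16892 genes). Between liver and lung 8 of 28 keratins were called, where 42.6% of all genes were. 3 were higher in liver (18.9% of all genes) and 5 lower (23.7%). Krt20, Krt23 and Krt83 were higher in liver, and Krt19, Krt7, Krt80, Krt15 and Krt17 lower. With the embryo as a block 5 were called: the calls of Krt15, Krt17, Krt23 and Krt83 were lost and that of Krt28, with 0 reads in every wild-type liver, was gained.

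Krt20 was at 24.0 to 42.0 CPM in the 8 wild-type livers and at 0 to 0.351 CPM in the 7 lungs. Its log2 fold change of liver against lung was 7.96 (SE 0.296, edgeR adjusted p = 6.29e-26). Krt19 was at 4.46 to 12.5 CPM in liver and 216 to 305 CPM in lung, a log2 fold change of -5.29 (SE 0.155, edgeR adjusted p = 1.71e-29). These groups did not overlap, which held for 5 of 28 keratins and 49.8% of all genes.

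Krt7 was at 2.64 to 9.79 CPM in wild-type liver and 174 to 262 CPM in lung, a log2 fold change of -5.10 (SE 0.184, edgeR adjusted p = 2.25e-26). Krt8 was lower in liver by less than the threshold on fold, with a log2 fold change of -0.56 (SE 0.0934, edgeR adjusted p = 8.84e-07). Krt18 differed by 0.09 on the log2 scale, and its sign turned with scaling. When library totals replaced TMM factors, the median of all genes moved by -0.63 between liver and lung, Krt8 moved to -1.20 and Krt18 to -0.54. Krt8 was then called (SE 0.0893, edgeR adjusted p = 7.51e-16). Krt20, Krt19 and Krt7 kept their direction and call under both, and gave 7.92, -5.32 and -5.28 without the squamous pair.

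Krt15 and Krt17 are basal and stress keratins that were called lower in liver although the squamous wild-type liver was included. Without both squamous libraries the log2 fold change of Krt15 was -10.57 (edgeR adjusted p = 3.90e-15), against a fall of 4.85 with them. The size of the value without them depends on the prior count, because the remaining wild-type livers of the S226A litters had 0 reads. Its direction does not: Krt15 was then at most 0.849 CPM in wild-type livers and at least 25.0 CPM in wild-type lungs. The number of keratins called stayed 8, where 7153 of 16859 genes were called.

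Against brain, liver had 13 keratins called, where 56.1% of all genes were. 8 were higher (26.9% of all genes) and 5 lower (29.2%), and 13 did not overlap (68.3% of all genes). The 5 simple keratins were all higher in liver, with log2 fold changes of 9.49 for Krt20, 6.62 for Krt8, 5.94 for Krt18, 3.51 for Krt7 and 1.63 for Krt19 (edgeR adjusted p at most 5.79e-12). Krt222 was at 7.18 to 10.1 CPM in the 8 wild-type brains, and no liver reached that level. It was called with a log2 fold change of -3.78 (SE 0.430, edgeR adjusted p = 1.23e-10). Krt77 (1.59 CPM in brain) and Krt73 (0.611 CPM) were lower in every liver than in any brain, and Krt1 and Krt12 were called lower with overlapping groups. With the embryo as a block the call of Krt1 was lost and that of Krt28 gained. Without the squamous pair 14 keratins were called, where 9435 of 16859 genes were. Krt12 was lost (SE 1.20), and Krt10 (-2.81, SE 0.349) and Krt17 (-3.68, SE 0.907) were called lower. The 5 simple keratins then gave 9.45 for Krt20, 6.59 for Krt8, 5.95 for Krt18, 3.33 for Krt7 and 1.60 for Krt19, Krt1 gave -5.90, Krt222 -3.63 and Krt73 -4.78. Krt77 then had 0 reads in every wild-type liver, so no fold is given. Krt83, called higher in liver, was at 0.551 ± 0.595 CPM (SD, n = 8), and 22.1% of its 50-base windows occur in other hair keratins.

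Lung against brain gave 12 called keratins, where 48.8% of all genes were called. 7 were higher (25.7% of all genes) and 5 lower (23.1%), and 13 did not overlap (62.7% of all genes). Krt7, Krt8, Krt19, Krt80 and Krt18 were higher in every lung than in any brain, with log2 fold changes of 8.61, 7.18, 6.92, 5.98 and 5.85. Krt15 was also above every brain but had a standard error of 1.03, just past the criterion. Krt10 was called lower in lung, at -1.83 (edgeR adjusted p = 0.00953), a call that was lost with the embryo as a block and without 3 brain libraries described with the mutants. The block left 8 keratins called, and the calls of Krt17, Krt25 and Krt73 were lost as well.

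A list of 11 genes covered desmosome and keratin linker proteins and the adhesion molecules Cdh1 (E-cadherin, of adherens junctions) and Epcam. Against brain, 10 of 11 were called higher in liver, where 26.9% of all genes were, and 10 of 11 in lung, where 25.7% were, with medians of 4.74 and 4.77 on the log2 scale against -0.08 and -0.02 for all genes. Between liver and lung 2 were called higher in liver (18.9% of all genes) and 4 lower (23.7%). The desmosomal cadherins Dsc2 (3.59, SE 0.240) and Dsg2 (2.72, SE 0.0995) were higher in liver. Epcam (-4.05, SE 0.204), Pkp3 (plakophilin 3, -2.85, SE 0.355), Ppl (periplakin, -2.83, SE 0.293) and Jup (plakoglobin, -2.49, SE 0.0839) were lower. The edgeR adjusted p of these 6 was at most 1.62e-09. Ppl was at 83.5 and 56.2 CPM in the squamous pair against at most 18.4 CPM in the other livers. Without the pair all 6 were called in the same direction, with Ppl at -3.37 and Pkp3 at -3.33.

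Apart from Krt23 in liver, the remaining tested keratins were low in every tissue. Krt12, Krt25, Krt28, Krt34, Krt71, Krt73, Krt75, Krt79 and Krt87, of cornea, hair follicle and sebaceous gland, stayed below 1 CPM in all 47 libraries. Krt77 was at 0.961 to 2.16 CPM in the 16 brains and at most 0.289 CPM elsewhere. Krt23 was at 1.28 to 10.99 CPM in liver, 1.10 to 2.85 CPM in lung and at most 0.447 CPM in brain. Krt17 was at 0.207 to 4.85 CPM in lung and reached 3.02 CPM in the squamous wild-type liver.

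The mutants were then compared with their littermates. No keratin of 28 was called in S226A liver, where 2.1% of all genes were called. At an unadjusted p below 0.05 the count was 13 (24.7% of all genes), and with DESeq2 1 keratin was called (Krt10). At an adjusted p below 0.05 alone, 7 keratins were lower, where 5.54% of all genes were, and 0 were higher, where 6.14% were. They were Krt10, Krt1, Krt78, Krt5, Krt15, Krt13 and Krt4, the keratins of the squamous wild-type library. Krt4 was at 0, 0.369, 2.41 and 0.863 CPM in the 4 S226A livers and at 0, 543, 0.431 and 0 CPM in the wild types. The median log2 fold change was -0.80 over the 28 keratins and -0.01 over all genes. It was -0.20 over the 5 simple keratins and -5.29, -4.59 and -7.25 over the 3 tested basal, cornifying and mucosal keratins. Where a group had 0 reads, the fitted value depends on the prior count. With such genes at their bound against a floor of 3 counts over the group, the medians were -0.54 over the 28 keratins and -7.16 over the mucosal ones. Without the squamous pair and at these bounds they were 0.15 for the simple, 0 for the basal, 0 for the cornifying and 2.75 for the mucosal keratins, and 0 over the 28 keratins, as over all genes. Of the 11 linker and adhesion genes none was called, with Jup lower (-0.50, edgeR adjusted p = 0.00227) and Plec (plectin) higher (0.46, edgeR adjusted p = 0.0291) at an adjusted p below 0.05. Without the squamous pair they gave -0.34 (edgeR adjusted p = 0.0392) and 0.46 (edgeR adjusted p = 0.0496). The groups overlapped for each of the 7 keratins, and without both squamous libraries none was lower at that level.

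**Figure D4:**
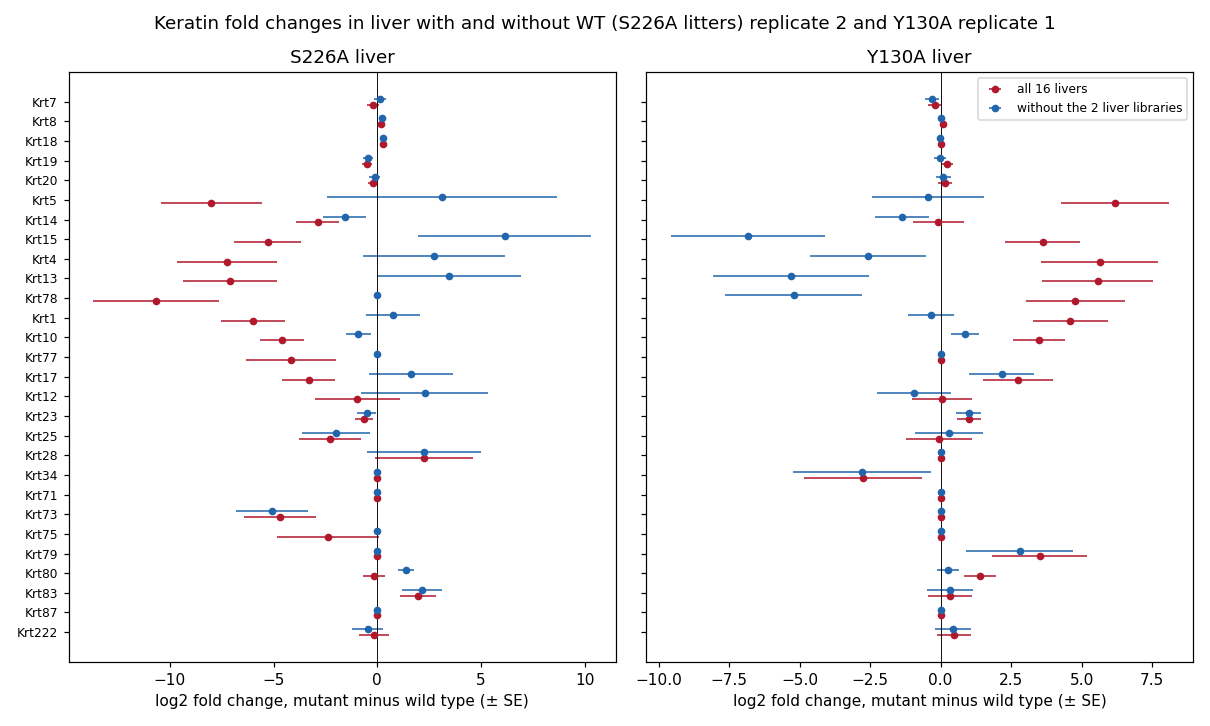
Log2 fold changes (± SE) of 28 keratins in S226A liver and Y130A liver, fitted with all 16 livers (red) and without wild-type (S226A litters) replicate 2 and Y130A replicate 1 (blue). Krt5, Krt15, Krt4, Krt13 and Krt78 lie far from 0 in opposite directions in the red fits and change side or sit at 0 in the blue ones, while Krt7, Krt8, Krt18, Krt19 and Krt20 stay near 0. Genes with no reads in either group sit at 0, and the value of a gene with no reads in 1 group depends on the prior count.

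None of the simple keratins passed the test in S226A liver. Krt18 was at 231, 258, 211 and 219 CPM in S226A livers and at 198, 181, 163 and 213 CPM in wild types, so the highest wild type overlapped the lowest S226A liver. Its log2 fold change was 0.28 (SE 0.1002, edgeR adjusted p = 0.0601). Paired by litter, S226A was higher in 4 of 4 litters, and with the litter as a block the edgeR adjusted p was 0.0298 at the same log2 fold change of 0.28, below the threshold on fold. Krt8 gave 0.19 (SE 0.128), Krt20 -0.20 (SE 0.240), Krt7 -0.21 (SE 0.285) and Krt19 -0.50 (SE 0.247), all with an edgeR adjusted p of 0.201 or more. Without the squamous pair Krt18 gave 0.26 (edgeR adjusted p = 0.124), Krt8 0.24, Krt20 -0.12, Krt7 0.15 and Krt19 -0.44.

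Krt80, a type II keratin, gave different values with and without the squamous pair. It was at 8.10, 3.46, 6.25 and 3.78 CPM in S226A livers and at 1.97, 18.2, 1.94 and 2.21 CPM in wild types. All 4 S226A livers were above the 3 wild types other than replicate 2. The log2 fold change was -0.18 (edgeR adjusted p = 0.909) with all libraries and 1.40 (SE 0.382, edgeR adjusted p = 0.0121) without the squamous pair. It was 1.40 with an edgeR adjusted p of 0.0659 when only the wild-type library was left out. In lung the same gene was at 10.1 to 18.6 CPM in S226A and 19.2 to 37.2 CPM in wild type, with no overlap, where 3.81% of all genes did not overlap. That difference, -0.77 (SE 0.499), did not pass the test (edgeR adjusted p = 0.467).

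Krt83 was the only keratin without overlap in S226A liver, where 11.9% of all genes did not overlap. It had 14 to 29 reads in the S226A livers and 1 to 9 in the wild types, and its log2 fold change of 1.98 (SE 0.871) had an edgeR adjusted p of 0.144. Without the pair it gave 2.16 (edgeR adjusted p = 0.153).

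In Y130A liver no keratin was called, where 0.077% of all genes were called. The count was 11 at an unadjusted p below 0.05 (9.22% of all genes), and DESeq2 called 1 (Krt10). Krt10 was at 23.9, 1.35, 1.17 and 0.815 CPM in Y130A livers and at 0.664, 0.729, 0.487 and 0.545 CPM in wild types. It was the only keratin without overlap, as were 2.35% of all genes. The log2 fold change was 3.48 (SE 0.932, edgeR adjusted p = 0.0866), and 0.87 (SE 0.488, edgeR adjusted p = 0.671) without the squamous libraries. The median log2 fold change was 0.20 over the 28 keratins and 0 over all genes. It was 3.62, 3.48 and 5.57 over the 3 tested basal, cornifying and mucosal keratins, none of which was called. Without the squamous pair, and with genes at 0 at their bound, the medians were -1.37, 0 and -2.56, and 0 over the 28 keratins, as over all genes. The fitted mucosal median was -5.22. The simple keratins had log2 fold changes between -0.21 and 0.23, and between -0.30 and 0.10 without the pair. Krt23 was at 7.02, 7.95, 8.29 and 4.27 CPM in Y130A and at 4.75, 1.28, 5.60 and 2.06 CPM in wild types, a log2 fold change of 1.00 (SE 0.415, edgeR adjusted p = 0.384), and 0.99 (edgeR adjusted p = 0.478) without the pair.

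The difference between the S226A and Y130A effects in liver was tested directly. It was called for 6 keratins, Krt10, Krt1, Krt5, Krt78, Krt15 and Krt13, where 1.47% of all genes were called (no criterion on the standard error). None was called without both squamous libraries. With the litter as a block 2 were called, and with the 16 livers fitted alone 0. One squamous library is a wild type of the S226A litters and the other a Y130A mutant. In lung 0 keratins were called, where 0.077% of all genes were, with 0 at an unadjusted p below 0.05 (9.8% of all genes). In brain 0 were called (0.0474% of all genes), with 2 at an unadjusted p below 0.05 (2.29%), and DESeq2 called 0 in both tissues.

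In lung no keratin was called for S226A or Y130A, where 0.302% and 0% of all genes were called. At an unadjusted p below 0.05 the counts were 0 (16.2% of all genes) and 1 (2.92%), and DESeq2 called 0. Krt4 varied more between lungs of 1 group than the group means differed. Krt4 was at 12.7, 102, 1.25 and 1.10 CPM in wild types of the S226A litters and at 0.371, 77.8, 28.8 and 0.578 CPM in S226A lungs. It was at 111, 41.8 and 94.7 CPM in wild types of the Y130A litters and at 55.0, 1.08, 105 and 1.13 CPM in Y130A lungs. High and low libraries occurred in both mutants and in the wild types of the S226A litters.

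Krt13, the partner of Krt4, ran from 0.1002 to 67.3 CPM over the 15 lungs, and the libraries below 2 CPM for Krt13 were the same as those below 2 CPM for Krt4. Krt5 ran from 0.289 to 12.6 CPM. Krt15 was at 25.0 to 115 CPM and Krt19 at 199 to 313 CPM. The 24 other squamous genes summed to 118.5 to 198 CPM. Hepatocyte markers also varied, from 24.8 to 1565 CPM in sum, and skeletal muscle markers from 27.4 to 376 CPM. Their part in the keratin values was not tested. The log2 fold changes of Krt4 were -0.13 (SE 1.67) in S226A lung and -1.03 (SE 1.74) in Y130A lung, standard errors that leave changes of several fold undetectable here. For Krt8, Krt18, Krt19 and Krt7 they lay between -0.11 and 0.06, with standard errors of 0.10 to 0.222.

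**Figure D5:**
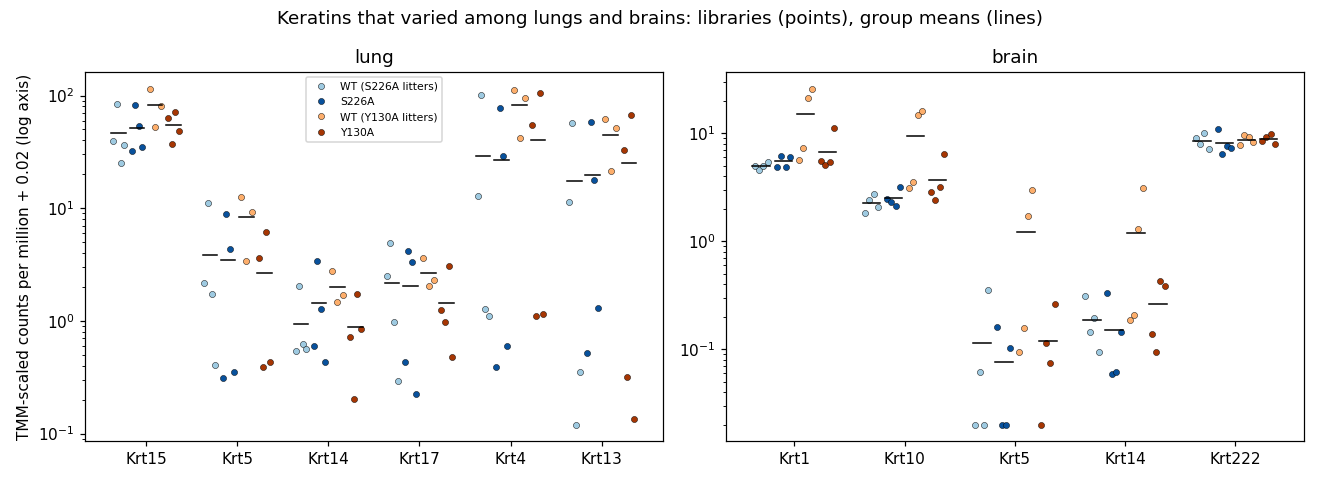
Keratins of stratified epithelia in the 15 lungs (left) and keratins in the 16 brains (right), as TMM-scaled CPM + 0.02 on a log axis (points are libraries, lines are group means). Krt4 and Krt13 split into high and low lungs in 3 of the 4 groups, and Krt1 and Krt10 are raised in 2 wild-type (Y130A litters) brains and 1 Y130A brain.

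In brain no keratin was called for S226A or Y130A, where 0.124% and 0% of all genes were called. The counts at an unadjusted p below 0.05 were 2 (2.27% of all genes) and 3 (2.22%), and DESeq2 called 0. Krt18 was at 3.39, 4.18, 3.97 and 3.63 CPM in S226A brains and at 2.40, 2.29, 2.605 and 2.63 CPM in their wild types, with no overlap, where 2.48% of all genes did not overlap. The log2 fold change was 0.61 (SE 0.147, edgeR adjusted p = 0.0632), below the threshold on fold. The wild types of the Y130A litters were at 3.38 to 4.67 CPM, as high as the S226A brains. They belong to the other, more deeply sequenced litter set, and effects of litter set and depth cannot be told apart here. Krt8, its partner, gave -0.05 (SE 0.229).

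Krt1 and Krt10 were present in every brain. Krt1 was at 5.60, 7.25, 21.1 and 25.9 CPM in wild types of the Y130A litters and at 5.53, 5.03, 5.35 and 11.1 CPM in Y130A brains. In the 8 brains of the S226A litters it stayed at 4.54 to 6.17 CPM. Wild-type replicates 3 and 4 and Y130A replicate 4 stood above all others.

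Krt10 followed, at 14.8, 16.02 and 6.37 CPM in these 3 libraries and at 1.81 to 3.54 CPM in the other 13. Krt5 was at 1.68 and 2.95 CPM in the 2 wild types and at most 0.333 CPM in the rest. Krt14 was at 1.27 and 3.07 CPM against at most 0.412 CPM. The squamous list summed to 33.3 and 39.9 CPM in the 2 wild types and 25.9 CPM in the Y130A brain, against 18.9 to 25.5 CPM in the others, and the source was not tested. In Y130A brain Krt1 gave -1.15 (SE 1.00) and Krt10 -1.34 (SE 0.810) on the log2 scale. Without the 3 libraries these were -0.28 (SE 1.36) and -0.25 (SE 1.03), and Krt10 was no longer called between wild-type lung and brain (-1.08, edgeR adjusted p = 0.140). The fit shares 1 estimate of the spread per gene over all tissues, so the squamous livers also enter these errors and this adjusted p.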

How the data were processed

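Total RNA of liver, lung and brain was sequenced by the authors, who trimmed reads with Trim Galore 0.6.5, checked them with FastQC 0.11.5, aligned them with STAR 2.6.0b to GRCm38.p6 and deposited raw STAR gene counts (GENCODE annotation). The authors left out 1 wild-type lung as an outlier. Library totals differ between litter sets, so each mutant was compared with the wild types of its own litter set, and the litter itself entered as a block only in an alternative fit. Groups, litters and embryos follow the labels. Keratins and gene lists were chosen with earlier results of these data known.

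Counts were filtered (filterByExpr, minimum count 10, minimum total 15), TMM-normalised and fitted with 1 coefficient per group over all 47 libraries (edgeR 4.0.16, R 4.3.3). Alternatives used DESeq2 1.42.0, RLE, library totals, no filter, other sample sets and blocks. Library totals, exon lengths, the fit without 3 brain libraries and the medians at bounds were added after the data were seen. P-values rest on the spread between embryos, with 1 estimate per gene shared by all groups and tissues. A library far from its group in 1 tissue therefore enters the errors of the others. The fit was tested on simulated data. Coordinates and lengths come from GENCODE (20424 of 20456 genes matched). The other 32 rows kept their gene ID and stayed in the fit.

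Genes named were the 5 highest per kb in each tissue, called genes without overlap (up to 5 a direction), the 8 most raised in each squamous liver, and Krt1, Krt4, Krt5, Krt7, Krt8, Krt10, Krt13, Krt14, Krt15, Krt18, Krt19 and Krt20. Krt17 and other called keratins outside this rule were named after their values were seen.

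Litter and embryo numbers in the labels pair the samples. Deviations from group means correlated above 0.1 in 18 of 23 mutant and wild-type pairs of 1 litter and in 5 of 69 pairs of 2 litters.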

Additional observations from a re-analysis of the deposited data

Results flagged for a closer look

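Dixon's test at 95% was run on Krt1, Krt4, Krt5, Krt7, Krt8, Krt10, Krt13, Krt14, Krt15, Krt18, Krt19 and Krt20 alone. Other keratins, such as Krt78, were not examined. Values far from the other 3 libraries of their group were found in 23 of the 93 groups of 4 in which such a keratin reached 1 CPM. Chance flags about 1 in 20 of groups not picked by their values. The groups here were picked by their highest library, so that rate does not apply. Of the 23, 14 lie in the 2 livers already known to hold squamous transcripts and 9 in other libraries, so the total is no independent result. In wild-type liver (S226A litters) replicate 2 these were Krt4 (543.2 CPM), Krt13 (412 CPM), Krt15 (42.1 CPM), Krt1 (38.6 CPM), Krt5 (34.2 CPM) and Krt10 (33.9 CPM). In Y130A liver replicate 1 they were Krt4 (349.8 CPM), Krt13 (287 CPM), Krt5 (27.9 CPM), Krt10 (23.9 CPM), Krt1 (22.1 CPM), Krt15 (21.1 CPM), Krt19 (13.5 CPM) and Krt14 (2.80 CPM).

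Smaller departures in other livers were Krt18 (237 CPM) and Krt19 (12.5 CPM) in wild type (Y130A litters) replicate 1, Krt7 (5.07 CPM) in replicate 2 of that group, Krt18 (160.9 CPM) in Y130A replicate 3 and Krt13 (3.09 CPM) in S226A replicate 3. In lung, wild type (S226A litters) replicate 2 stood apart for Krt4 (101.5 CPM), Krt5 (11.1 CPM) and Krt14 (2.02 CPM). In brain, Y130A replicate 4 stood apart for Krt1 (11.1 CPM).

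The difference between the fitted S226A and Y130A effects in liver (edgeR test of the difference) was called for 6 keratins in the fit of all 47 libraries. It was called for 0 with the 16 livers fitted alone, for 2 with the litter as a block and for 0 without the 2 squamous libraries. No difference between the mutations can therefore be read from these values: Krt10 (-8.07, adjusted p = 0.000174), Krt1 (-10.60, adjusted p = 0.000633), Krt5 (-14.18, adjusted p = 0.00270), Krt78 (-15.45, adjusted p = 0.00424), Krt15 (-8.91, adjusted p = 0.00581) and Krt13 (-12.67, adjusted p = 0.00618). These are log2 values. That of Krt78 depends on the prior count, because all 4 S226A livers had 0 reads.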

How the results depend on the processing

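The count of called keratins in the 6 mutant comparisons stayed 0 under every alternative run except in liver. There DESeq2 called 1 in S226A and 1 in Y130A, and S226A liver had 2 without the criterion on the standard error and 7 at an adjusted p below 0.05 alone. Leaving out each replicate in turn gave 0 in each mutant comparison. For wild-type tissues, the embryo block gave 5 between liver and lung, and an adjusted p below 0.05 alone gave 17 (liver and lung, 80.1% of all genes), 23 (liver and brain, 87.3%) and 24 (lung and brain, 84%). Without the criterion on the standard error the last 2 had 20 and 19. The shares of all genes without that criterion were not counted, so these counts cannot be set against them. Leaving out 1 library gave 7 to 8, 11 to 15 and 9 to 13.

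The difference between the mutations in liver was called for 6 keratins, for 0 with only the libraries compared, for 2 with the litter as a replicate block, for 0 without both squamous libraries, and for 0 to 7 leaving out 1 library. It was 0 without wild type (S226A litters) replicate 2, 1 without Y130A replicate 1, and 3 without S226A replicate 1 or 2 or wild type (Y130A litters) replicate 2 or 3. Without both squamous libraries the fitted sign turned for Krt1 (1.12, SE 1.55), Krt5 (3.58, SE 5.91), Krt13 (8.78, SE 4.43) and Krt15 (12.99, SE 4.86), none passing the test. The values of Krt5 and Krt15 depend on the prior count. Krt5 then had 2 reads in S226A livers and 0 in their wild types. Krt15 had 18 against 0 there, and 0 in Y130A livers against 57 in their wild types. The fitted sign also turned for Krt78 (5.22), which had 0 reads in both groups of the S226A litters and carries no direction. For Krt15 it turned too without wild type (S226A litters) replicate 2 (2.52) or Y130A replicate 1 (1.54). Over single libraries left out, Krt15 ranged from -11.58 to 2.52. Beside these and the 5 between liver and lung, the block changed no count by over 1.5 times, and lung against brain went from 12 to 8 with the calls of Krt10, Krt17, Krt25 and Krt73 lost. Liver against brain stayed at 13, with Krt1 lost and Krt28 gained.

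Squamous keratins of a few reads have wide errors, and libraries of the S226A litters were sequenced less deeply than those of the Y130A litters.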
